A study of Mus musculus with 8 samples.

Results

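The 10 genes described here belong to the YAP and TAZ transcriptional pathway: Yap1 and Wwtr1 (the gene of TAZ), which encode the co-activators, the TEAD factors Tead1, Tead2, Tead3 and Tead4, and 4 genes tied to their output, Amotl2, Ankrd1, Lats2 and Axl. Their accessible regions were taken as every called ATAC-seq region that overlapped the body of a member or the 20 kb upstream of it, which gave 67 of the 69399 regions of the series. ATAC-seq marks open chromatin by the insertion of Tn5 transposase. YAP and TAZ do not bind DNA themselves and reach their target genes through TEAD factors. The Hippo kinases, with LATS2 among them, phosphorylate YAP and TAZ and keep them out of the nucleus, and adhesion and cytoskeletal tension act on the same step. AMOTL2 and LATS2 restrain YAP and TAZ and are also encoded by their target genes, so the list holds parts of a negative feedback loop.

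The libraries came from mouse cutaneous squamous cell carcinoma (SCC) cells that varied in focal adhesion kinase (FAK), a kinase of cell-matrix adhesions encoded by Ptk2. Tumours had been induced with DMBA and TPA in FVB mice carrying K14CreER and FAKflox/flox, where the keratin 14 promoter drives a tamoxifen-inducible Cre, and the driver gene is labelled Ha-Ras. FAK was deleted in the cultured tumour cells with 4-hydroxytamoxifen to give FAK-/- cells, and retroviral transduction of these cells gave the other lines. FAK-WT carries the normal protein, FAK-nls a form whose nuclear localization sequence was mutated, and FAK-kd a kinase-deficient form. All 4 lines therefore share the deletion of the endogenous gene and descend from 1 FAK-/- clone. The lines expressing a FAK construct had been selected with hygromycin. Each line was measured in 2 biological replicates, without further treatment. Since both libraries of a line come from that one line, the p-values below measure the spread between those libraries.

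Peaks had been called in every library separately, and the lists held between 24402 peaks (FAK-nls replicate 1) and 53728 peaks (FAK-WT replicate 1). Because a longer list holds more weak peaks, the WT-only and reverse counts defined below were also repeated with each list held to its top 24383 peaks, ranked by -log10 p (the strongest peaks). The lists give no read counts, and absence of a call does not mean closed chromatin. Of 8 keratinocyte genes only Itga6 had a promoter called in all 8 libraries, Krt14 had a promoter called in 1 library and Krt5, Trp63, Cdh1, Cdh3 and Dsg3 in none, whereas 6 of 8 mesenchymal genes (Vim, Pdgfra, Pdgfrb, Col1a1, Col1a2, Twist1) had it in all 8. The labelled epithelial origin was thus not seen at most keratinocyte promoters. No promoter of 6 immune or 3 endothelial genes was called in all 8, and of 3 melanocyte genes Mitf and Pmel were called in all 8 and Dct in none.

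The DNA of the regions on which the results turn is shown first, because no value below identifies a region by itself. The 250 bases upstream of the RefSeq start (GRCm38.p6) are given for Ankrd1, a stress-responsive muscle ankyrin repeat protein and a common readout of YAP (chr19:36119845-36120094, minus strand), and for Amotl2, which encodes an angiomotin that binds YAP (chr9:102717554-102717803, plus strand). Capitals mark GGAATG, the core of the TEAD motif, or its complement CATTCC.
Ankrd1 promoter: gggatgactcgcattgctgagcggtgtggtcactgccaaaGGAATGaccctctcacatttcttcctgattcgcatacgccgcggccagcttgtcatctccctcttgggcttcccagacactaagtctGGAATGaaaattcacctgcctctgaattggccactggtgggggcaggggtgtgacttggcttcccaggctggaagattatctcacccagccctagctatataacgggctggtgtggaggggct
Amotl2 promoter: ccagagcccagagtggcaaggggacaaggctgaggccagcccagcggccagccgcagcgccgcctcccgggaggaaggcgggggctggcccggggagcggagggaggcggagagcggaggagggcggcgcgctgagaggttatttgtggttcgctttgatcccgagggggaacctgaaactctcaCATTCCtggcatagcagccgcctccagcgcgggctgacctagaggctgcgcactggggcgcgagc
The RefSeq promoter table held 8 of the 10 members, with 12 starts, some of which overlap. GGAATG on either strand was found upstream of 8 of these starts and 6 of these genes (Ankrd1, Amotl2, Axl, Tead3, Wwtr1 and Yap1), against 12.6% of all 32851 starts in the table. TGACTCA, the motif of AP-1, was upstream of 0 member starts and 4.46% of all starts.

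The central 300 bases of 4 regions whose calls differed between the lines are shown next, on the plus strand of mm10 as read from GRCm38. They are an Amotl2 intronic region (chr9:102726282-102726581), an intronic Tead3 region (chr17:28340840-28341139), an intronic Tead1 region (chr7:112868920-112869219) and an intronic Ankrd1 region (chr19:36116235-36116534). Capitals mark TGACTCA or its complement TGAGTCA.
Amotl2 intron: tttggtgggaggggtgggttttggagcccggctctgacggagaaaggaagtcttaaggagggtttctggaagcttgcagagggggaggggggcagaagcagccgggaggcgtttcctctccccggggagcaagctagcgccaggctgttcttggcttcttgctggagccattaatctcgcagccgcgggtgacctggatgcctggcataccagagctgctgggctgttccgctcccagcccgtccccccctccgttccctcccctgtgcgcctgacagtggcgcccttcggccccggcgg
Tead3 intron: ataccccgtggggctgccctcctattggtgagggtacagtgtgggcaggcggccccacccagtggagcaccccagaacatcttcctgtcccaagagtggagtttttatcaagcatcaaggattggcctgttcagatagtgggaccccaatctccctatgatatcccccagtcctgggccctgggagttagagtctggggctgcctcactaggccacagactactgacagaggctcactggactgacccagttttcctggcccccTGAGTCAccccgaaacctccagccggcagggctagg
Tead1 intron: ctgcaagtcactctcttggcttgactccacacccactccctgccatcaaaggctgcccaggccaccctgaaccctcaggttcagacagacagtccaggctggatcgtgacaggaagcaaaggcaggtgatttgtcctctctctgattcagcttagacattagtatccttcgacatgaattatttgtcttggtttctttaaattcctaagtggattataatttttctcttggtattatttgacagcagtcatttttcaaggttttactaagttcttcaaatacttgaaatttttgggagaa
Ankrd1 intron: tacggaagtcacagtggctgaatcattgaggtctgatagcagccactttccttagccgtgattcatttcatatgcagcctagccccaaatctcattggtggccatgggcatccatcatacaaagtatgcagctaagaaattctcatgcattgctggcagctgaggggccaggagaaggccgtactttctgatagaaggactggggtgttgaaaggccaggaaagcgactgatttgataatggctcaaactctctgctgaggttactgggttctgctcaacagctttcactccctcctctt
The Tead3 stretch held 1 AP-1 motif, and none of the 4 held GGAATG. Over the central 300 bases of all member regions, GGAATG was found on either strand in 13 of 67 regions (19.4%), against 19% of all regions. A shuffled form of the motif, GAGATG, was found on either strand in 19.4% of member regions and 19.6% of all regions, so over all regions pooled the 6 letters were about as frequent as their shuffle. In the 15 promoter regions GGAATG was found in 5 (33.3%, against 13.2% of all promoter regions) and the shuffle in 3 (20%, against 15%), and in the 52 others in 8 (15.4%, against 21%) and 10 (19.2%, against 21.3%). TGACTCA was found in 15 member regions (22.4%), against 28.7% of all regions. A match of letters describes the sequence and does not show binding.

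The members differed widely in how much open chromatin their windows held. Tead1 had 20 regions in a window of 247 kb, Wwtr1 had 15 in 140 kb and Tead4 had 9 in 96.5 kb, while Tead2 had 1 region. Wwtr1 had more regions than 98.1% of the protein-coding genes with a window of similar length, Tead1 more than 93.7% and Tead4 more than 91.6%. The same share was 84.2% for Axl, 73.8% for Ankrd1, 63.8% for Lats2 and 61.8% for Amotl2. It was 48.2% for Yap1, 37% for Tead3 and 18.5% for Tead2. By position, 44 of the 67 regions had their centre in an intron, 8 in an exon or UTR and 15 upstream of the gene, and 26 were nearer to the start of another gene than to one of the member.

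In total 20 of the 67 member regions (29.9%) were called in all 8 libraries, against 25.8% of all regions, and 10 (14.9%) were called in 1 library, against 28.6% of all regions. A region counted as a promoter where it overlapped 500 bp before to 2000 bp after an annotated start. By this rule 14 of the member regions overlapped a promoter of the member and 15 a promoter of any gene. Of these 15 regions 9 (60%) were called in all 8 libraries, against 51.8% of all promoter regions, and of the 52 others 11 (21.2%) were, against 16.8%. Every member except Tead2, 9 of 10, had a promoter called in every library, against 41.9% of all protein-coding genes. Fewest member regions were called in FAK-nls replicates 1 and 2, at 26 and 27 (38.8% and 40.3% of the 67, against 34.9% and 35.7% of all regions), whose lists were also the shortest. FAK-WT had 56 and 39 (83.6% and 58.2%, against 77% and 55.9%). FAK-/- had 52 and 41 (77.6% and 61.2%, against 61.7% and 50.4%), and FAK-kd had 37 and 48 (55.2% and 71.6%, against 47.1% and 65.8%). The member share was above the share of all regions in each of the 8 libraries. Among the strongest peaks the counts lay between 24 and 30 (35.8% to 44.8% of the 67, against 34.9% to 35.1% of all regions).

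**Figure D1:**
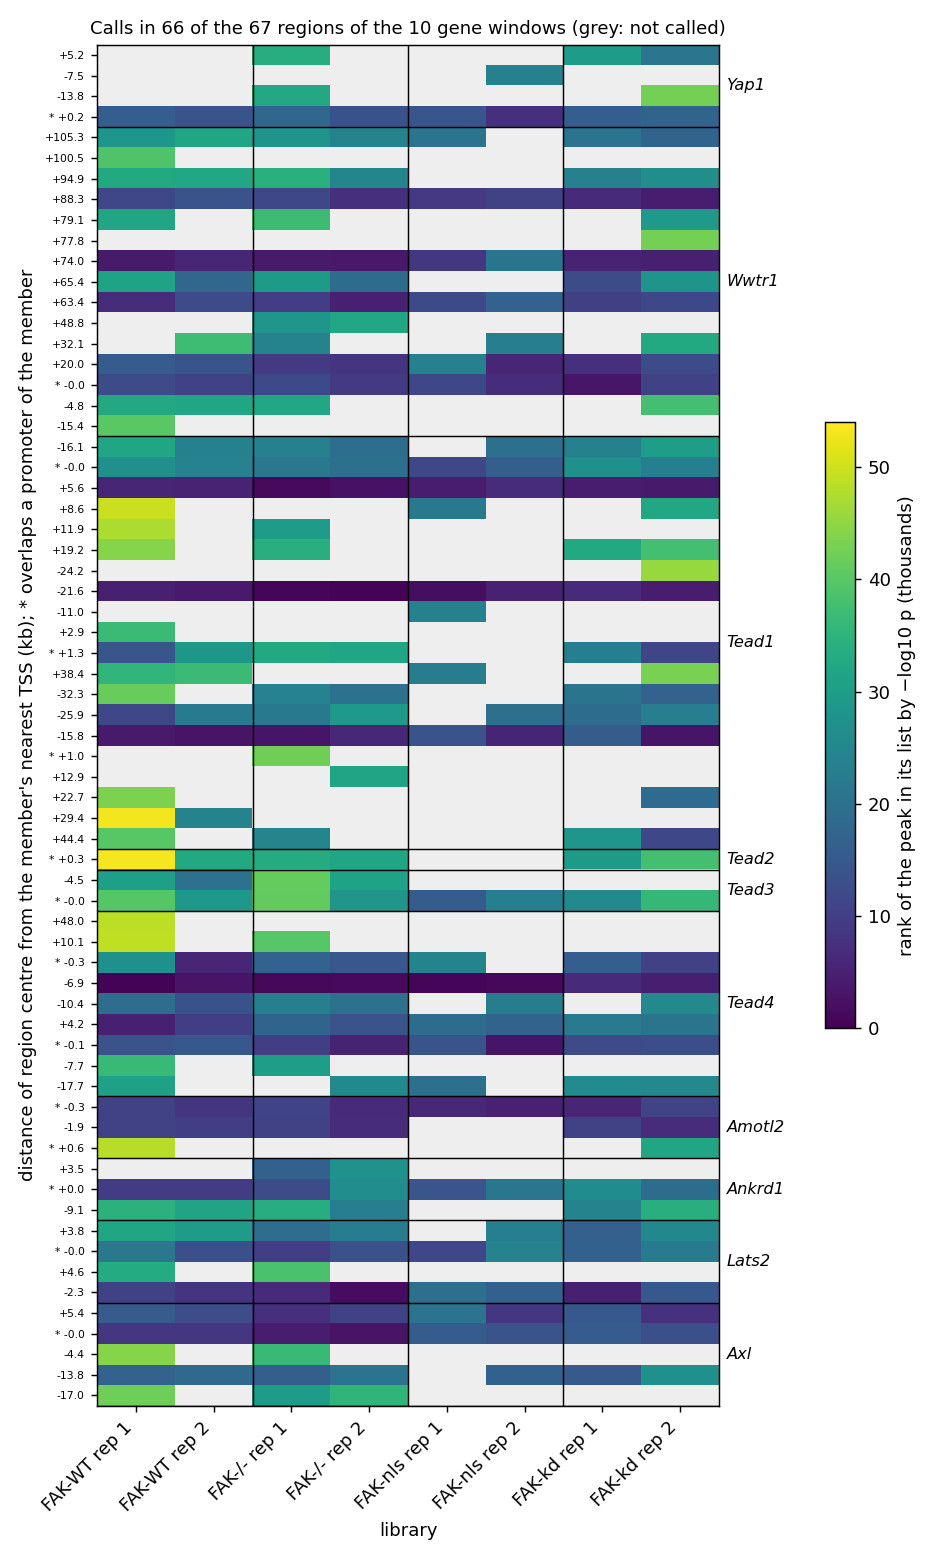
Calls in 66 of the 67 regions (rows, grouped by gene and labelled with the distance in kb from the member's nearest start) in the 8 libraries (columns), coloured by rank of the peak by -log10 p, with grey for regions not called. The dark rows, such as the Tead1 and Tead4 intronic regions, rank high in every library, and the FAK-nls columns hold the fewest calls (26 and 27).

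Yap1 encodes the co-activator YAP. Its window (chr9:7931999-8024596) held 4 regions, of which the promoter region was called in all 8 libraries (chr9:8003273-8005075). The fold enrichment of this promoter was 4.52 and 4.19 in FAK-WT, 3.98 and 3.99 in FAK-/-, 3.92 and 4.92 in FAK-nls and 3.88 and 4.17 in FAK-kd. Fold enrichment is the pileup of reads over the local background, averaged over the broad peak. Both FAK-WT values lay above the FAK-/- and FAK-kd values, and FAK-nls overlapped them. FAK-nls replicate 2 had 2 peaks in this region, and its 4.92 is that of the better-ranked one. That peak was 347 bp long, against 1733 and 1676 bp in FAK-WT. After centring each library on its median the log2 difference was 0.02 from FAK-/- (95% interval -0.29 to 0.32), -0.19 from FAK-nls (-0.50 to 0.11) and 0.09 from FAK-kd (-0.22 to 0.39). The intronic region at chr9:7960354-7960920, 5.18 kb after the nearest annotated start, which is internal to the gene, was called in both FAK-kd libraries and in neither FAK-WT library, with ranks 29565 and 21153, and also in FAK-/- replicate 1. It was the only member region that was reverse in the comparison with FAK-kd.

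Wwtr1, which encodes TAZ, had 5 of its 15 regions called in all 8 libraries. Its promoter (chr3:57575133-57576706) had a fold enrichment between 3.85 and 4.34 in the 8 libraries, and the lines overlapped. The strongest other region lay in an exon 74 kb after the nearest start (chr3:57501475-57502261), with 6.16 and 5.07 in FAK-WT, 5.53 and 5.24 in FAK-/-, 4.54 and 3.57 in FAK-nls and 4.70 and 5.71 in FAK-kd. Both FAK-nls values were the lowest of the 8 before centring. After centring, FAK-nls replicate 1 (0.0136) was above FAK-kd replicate 1 (-0.002). The centred difference of FAK-WT from FAK-nls, 0.29 (95% interval -0.03 to 0.62), did not pass (unadjusted p = 0.0729, limma). The intronic region at chr3:57526690-57527458 was called in both FAK-/- libraries alone, at ranks 28514 and 32223. It lies shortly before the start of Gm16016, an annotated gene inside Wwtr1. The regions 94.9 kb and 65.4 kb after the nearest start were called in the 6 libraries of the other lines and in neither FAK-nls library, with ranks between 12482 and 34296. A region 4.83 kb upstream was present in the FAK-WT pair and in neither FAK-nls library, and also in FAK-/- replicate 1 and FAK-kd replicate 2.

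The TEAD factors are the DNA-binding partners of YAP and TAZ, and their windows held the strongest member peaks. The Tead4 intronic region at chr6:128282081-128282805 had ranks 584 and 2888 in FAK-WT, 1191 and 1272 in FAK-/-, 1002 and 1137 in FAK-nls and 6728 and 4473 in FAK-kd. FAK-kd had the 2 lowest places of this region in any list, though the lists differ in length. As a percent of each list they were 20.4 and 9.74, against 1.09 and 7.4 in FAK-WT. The -log10 p overlapped, at 30.7 and 14.1 in FAK-WT and 9.97 and 15.9 in FAK-kd. The fold enrichment of this region was 6.39 ± 1.27 (SD, n = 2) in FAK-WT and 5.11 ± 0.735 in FAK-kd, a difference of 0.29 on the log2 scale with an unadjusted p of 0.0532 (limma, adjusted p = 0.81). The Tead1 intronic region at chr7:112719975-112720885 had ranks 815 and 547 in FAK-/-, ahead of the ranks 4772 and 3916 in FAK-WT, 1964 and 4896 in FAK-nls and 6330 and 4251 in FAK-kd. As a percent of each list these were 1.89 and 1.55 in FAK-/-, 8.89 and 10 in FAK-WT, 8.05 and 19.6 in FAK-nls and 19.2 and 9.25 in FAK-kd.

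Tead1 had 4 of its 20 regions called in all 8 libraries. The strong intronic region just described had a fold enrichment of 6.90 ± 0.389 (SD, n = 2) in FAK-/- and 5.97 ± 0.339 in FAK-WT, a log2 difference of -0.32 (95% interval -0.62 to -0.02, unadjusted p = 0.0403, limma adjusted p = 0.624), and -0.21 with no centring. At the Tead1 promoter (chr7:112678523-112680177) the values were 3.99 and 3.53 in FAK-WT and 4.40 and 4.19 in FAK-nls, so FAK-nls was higher. That difference was -0.37 with an unadjusted p of 0.0131 and a limma adjusted p of 0.201. It was -0.19 with no centring and turned to 0.02 on normal scores of ranks. Peaks at this promoter were shorter in FAK-nls, at 635 ± 498 bp (SD, n = 2) against 1330 ± 59.4 bp in FAK-WT. The part of peak length in the difference was not tested. This promoter is shared with 2310014F06Rik. The region at chr7:112868766-112869373, in an intron 29.4 kb after the nearest start of the gene, was found in the FAK-WT pair and in no library of another line. Its peak stood near the end of the list of FAK-WT replicate 1, at rank 53054 of 53728, and at rank 24198 of 39056 in replicate 2, just inside the strongest peaks, and it was the only member region with calls in the full FAK-WT pair and nowhere else (1.49%, against 1.99% of all regions). A further intronic region (chr7:112797624-112798216) was present in the FAK-WT pair, FAK-nls replicate 1 and FAK-kd replicate 2 and in neither FAK-/- library, and an alternative promoter region (chr7:112760458-112761181) was missing in both FAK-nls libraries alone.

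Tead2 was the one member without a constant promoter. Its promoter region (chr7:45215641-45216736) was the sole region in its window, and it was called in both FAK-WT, both FAK-/- and both FAK-kd libraries but in neither FAK-nls library. The fold enrichment was 2.75 and 3.17 in FAK-WT, 3.06 and 2.93 in FAK-/- and 3.11 and 3.57 in FAK-kd. These were weak peaks, with ranks between 29458 and 53289, beyond the length of either FAK-nls list, and none was among the strongest peaks of its library. The window also contains the starts of Ccdc155 and Dkkl1.

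Tead3 had its promoter (chr17:28349961-28351744) called in all 8 libraries at fold enrichments between 2.55 and 3.60. The intronic region at chr17:28340652-28341327, 4.47 kb before the nearest start of the gene, was called in both FAK-WT and both FAK-/- libraries and in none of the 4 libraries of the mutants. Its fold enrichment was 4.29 and 4.05 in FAK-WT and 2.61 and 2.90 in FAK-/-, so the values did not overlap. Its ranks were 30578, 20053, 41163 and 31388.

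Tead4 had 3 of its 9 regions called in all 8 libraries. At the promoter (chr6:128299992-128301802) the fold enrichment was 3.65 and 3.30 in FAK-WT and 3.47 and 4.97 in FAK-nls, where only FAK-nls replicate 2 was above both FAK-WT values. After centring both FAK-nls values (-0.377 and 0.0874) were above both FAK-WT values (-0.615 and -0.548). The centred difference was -0.44 (unadjusted p = 0.0121, limma adjusted p = 0.195). The difference was -0.20 without FAK-nls replicate 2, -0.67 without replicate 1, -0.26 with no centring and -0.01 on normal scores of ranks. Peaks at this promoter were shorter in FAK-nls, at 514.5 ± 271 bp (SD, n = 2) against 1088 ± 499 bp in FAK-WT. The part of peak length in the difference was not tested. An intronic region 4.17 kb from the nearest start (chr6:128296168-128296976) was higher in FAK-WT, at 4.62 and 3.71, than in FAK-kd, at 2.95 and 3.32, and FAK-WT was also above FAK-/- (3.35 and 3.47) and FAK-nls (3.15 and 3.44). The difference was 0.38 (95% interval 0.11 to 0.65) with an unadjusted p of 0.00892, the lowest of the 60 member values, but it did not pass over all regions (limma adjusted p = 0.619).

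Amotl2 gave the clearest difference in calls. The intronic region at chr9:102726156-102726707, 1.9 kb before an internal start of the gene, was called in all 6 libraries of FAK-WT, FAK-/- and FAK-kd and in neither FAK-nls library. Its ranks were 10419 and 10094 in FAK-WT, 10716 and 6822 in FAK-/- and 10395 and 6857 in FAK-kd. All of these lie well inside the 24402 and 24974 peaks of the FAK-nls lists. Fold enrichment was 5.44 and 4.70 in FAK-WT, 4.42 and 4.72 in FAK-/- and 4.36 and 5.80 in FAK-kd. The promoter of the same gene (chr9:102717198-102718997) was called in all 8 libraries, and its fold enrichment was higher in FAK-nls, at 4.09 and 4.47, than in FAK-WT, at 4.03 and 3.73 (difference -0.32, unadjusted p = 0.0435, limma adjusted p = 0.299). It was -0.14 with no centring and turned to 0.08 on normal scores of ranks. Peaks at this promoter were shorter in FAK-nls, at 1292 ± 52.3 bp (SD, n = 2) against 1750 ± 61.5 bp in FAK-WT. The part of peak length in the difference was not tested.

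Ankrd1 had 3 regions. Its promoter (chr19:36119736-36120463) had fold enrichments of 6.54 and 5.42 in FAK-WT, 5.46 and 3.67 in FAK-/-, 4.33 and 3.81 in FAK-nls and 3.70 and 5.31 in FAK-kd. Before centring, FAK-WT was above both FAK-nls and both FAK-kd values and overlapped FAK-/-. After centring, FAK-WT (0.226 and 0.165) was also above FAK-/- (0.135 and -0.343). The centred log2 difference was 0.30 from FAK-/- (95% interval -0.06 to 0.66), 0.37 from FAK-nls (0.02 to 0.73) and 0.40 from FAK-kd (0.04 to 0.75), with unadjusted p of 0.0949, 0.0419 and 0.0307 and limma adjusted p of 0.74, 0.295 and 0.76. These comparisons share the FAK-WT libraries, and without FAK-kd replicate 1 the difference from FAK-kd was 0.25. That from FAK-/- was 0.06 without FAK-/- replicate 2 and 0.54 without FAK-/- replicate 1. The intronic region 3.53 kb after the nearest annotated start (chr19:36116203-36116565) was called in the FAK-/- pair alone, at fold enrichments of 4.77 and 3.62 and ranks 16710 and 27484. The region 9.09 kb upstream (chr19:36128611-36129765) was called in the 6 libraries of FAK-WT, FAK-/- and FAK-kd and in neither FAK-nls library, at ranks from 23005 to 34597.

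Lats2 encodes a kinase that inhibits YAP and TAZ. The promoter region at an internal start of the gene (chr14:57745466-57746752), which overlaps the start of Gm49361, was called in every library at fold enrichments between 3.28 and 5.17. A region 2.34 kb upstream (chr14:57760344-57761120), whose central 300 bases hold 2 GGAATG motifs, had 6.12 and 5.61 in FAK-WT, 5.83 and 7.08 in FAK-/-, 3.68 and 4.28 in FAK-nls and a mean of 5.96 ± 0.0636 (SD, n = 2) in FAK-kd. Both FAK-nls values lay below all other 6, and the peak was also shorter there, at 225 ± 35.4 bp (SD, n = 2) against 704.5 ± 103 bp in FAK-WT. The difference from FAK-WT was 0.38 (95% interval 0.05 to 0.72, unadjusted p = 0.0261, limma adjusted p = 0.251).

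Axl encodes a receptor tyrosine kinase. Its promoter (chr7:25788318-25789141) had fold enrichments of 5.16 and 4.22 in FAK-WT, 4.91 and 4.62 in FAK-/-, 3.89 and 4.23 in FAK-nls and 3.73 and 4.89 in FAK-kd, so the lines overlapped. It ranked highest in FAK-/-, at 4102 and 2818, against 8548 and 8552 in FAK-WT, in lists of different length. As a percent of each list these ranks were 9.51 and 8 in FAK-/- and 15.9 and 21.9 in FAK-WT. The -log10 p overlapped, at 14.8 and 13.3 in FAK-/- and 14.9 and 9.89 in FAK-WT. An intronic region 5.4 kb after the nearest annotated start of the gene (chr7:25780783-25782550) was also called in all 8. The 2 upstream regions farthest from the start lie within Cyp2s1, and none of the 5 Axl regions was WT-only or reverse in any comparison.

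**Figure D2:**
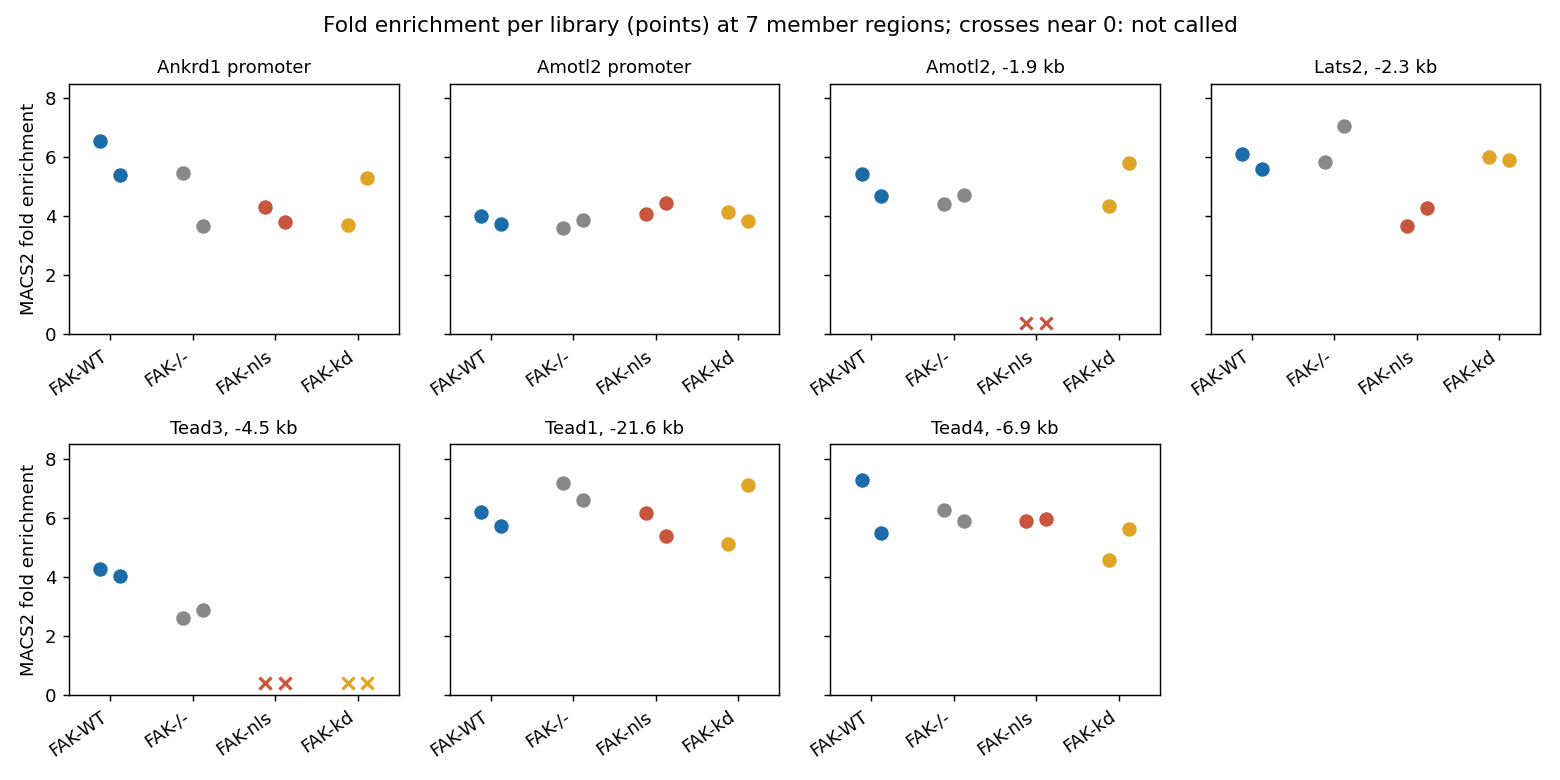
MACS2 fold enrichment in each library (points, 2 per line) at 7 member regions, labelled with the distance in kb from the nearest start, with a cross near 0 where the region was not called. The Amotl2 region at 1.9 kb is absent in FAK-nls alone, and the Tead3 region at 4.47 kb is absent in FAK-nls and FAK-kd.

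To ask whether the members as a group followed FAK, regions were counted as WT-only when called in both FAK-WT libraries and neither library of the other line, and as reverse in the opposite case. Against FAK-/-, 2 of 63 member regions (3.17%) were WT-only, both in Tead1, where 5.41% of all regions were. The 2 reverse regions (3.17%, against 1.31%) were the Wwtr1 and Ankrd1 intronic regions called in the FAK-/- pair alone, and of all regions 0.473% were of that kind. Against FAK-nls, 10 of 59 (16.9%) were WT-only, against 18.4% of all regions, and 0 were reverse, against 0.297%. Against FAK-kd, 3 of 61 (4.92%) were WT-only, against 4.76%, and 1 was reverse (1.64%, against 0.912%). The member shares of WT-only regions were therefore at or below the background in all but the comparison with FAK-kd, where they were close to it.

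Among the 10 WT-only regions of the FAK-nls comparison, 6 were missing in FAK-nls alone (8.96% of the 67, against 4.12% of all regions): 2 in Wwtr1 and 1 each in Tead1, Tead2, Amotl2 and Ankrd1. Regions present in the FAK-WT and FAK-/- pairs and missing in both mutants, the Tead3 intronic region among them, made 2.99% of the members, against 0.62% of all regions. With the strongest peaks only, the regions were merged again and 47 overlapped the windows. Then 0 of 36 were WT-only against FAK-/- (4.11% of all regions), 1 of 40 was in the FAK-nls comparison (5.66%) and 1 of 38 in that with FAK-kd (3.69%). Of the same regions 2, 0 and 2 were reverse (3.95%, 4.87% and 3.15% of all regions). The 2 against FAK-/- did not include the Wwtr1 and Ankrd1 intronic regions, which were not among the strongest peaks of both FAK-/- libraries. Regions called in the FAK-/- pair alone numbered 0 of 47, against 0.769% of all regions. The Amotl2 intronic region was the one that remained WT-only against FAK-nls, and the only one of the 47 missing in FAK-nls alone (2.13%, against 1.03%). Regions in the FAK-WT and FAK-/- pairs and missing in both mutants then numbered 0 of 47, against 0.323% of all regions. The Tead3 intronic region was among the strongest peaks in FAK-WT replicate 2 alone.

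**Figure D3:**
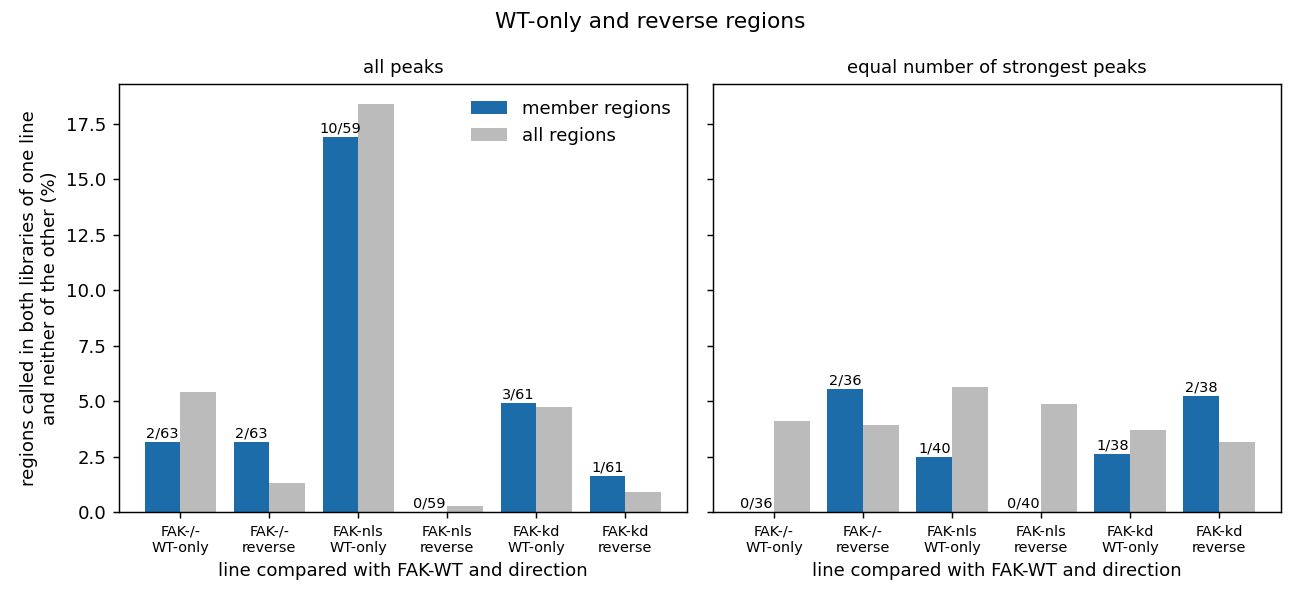
Share of regions (%) called in both libraries of one line and neither of the other, for member regions (blue, with counts) and all regions (grey), on all peaks and on an equal number of strongest peaks. The WT-only share against FAK-nls is high for both sets on all peaks (16.9% and 18.4%) and low for both at equal number (2.5% and 5.66%).

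For the 20 regions called in all 8 libraries, centred log2 fold enrichment was compared between FAK-WT and each other line with limma over all 17917 such regions. None of the 20 passed an adjusted p of 0.05 in any comparison. Over all regions 5 (0.0279%), 0 (0%) and 3 (0.0167%) passed against FAK-/-, FAK-nls and FAK-kd. At an unadjusted p under 0.05 there were 1, 5 and 2 member regions, against 7.68%, 15.9% and 6.22% of all regions. The member differences lay between -0.44 and 0.40, and their 95% intervals reached 0.27 to 0.39 to either side, which is the precision that 2 libraries per line gave. The median over the members was -0.08, -0.04 and -0.02, against -0.01, -0.03 and -0.01 over all regions.

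**Figure D4:**
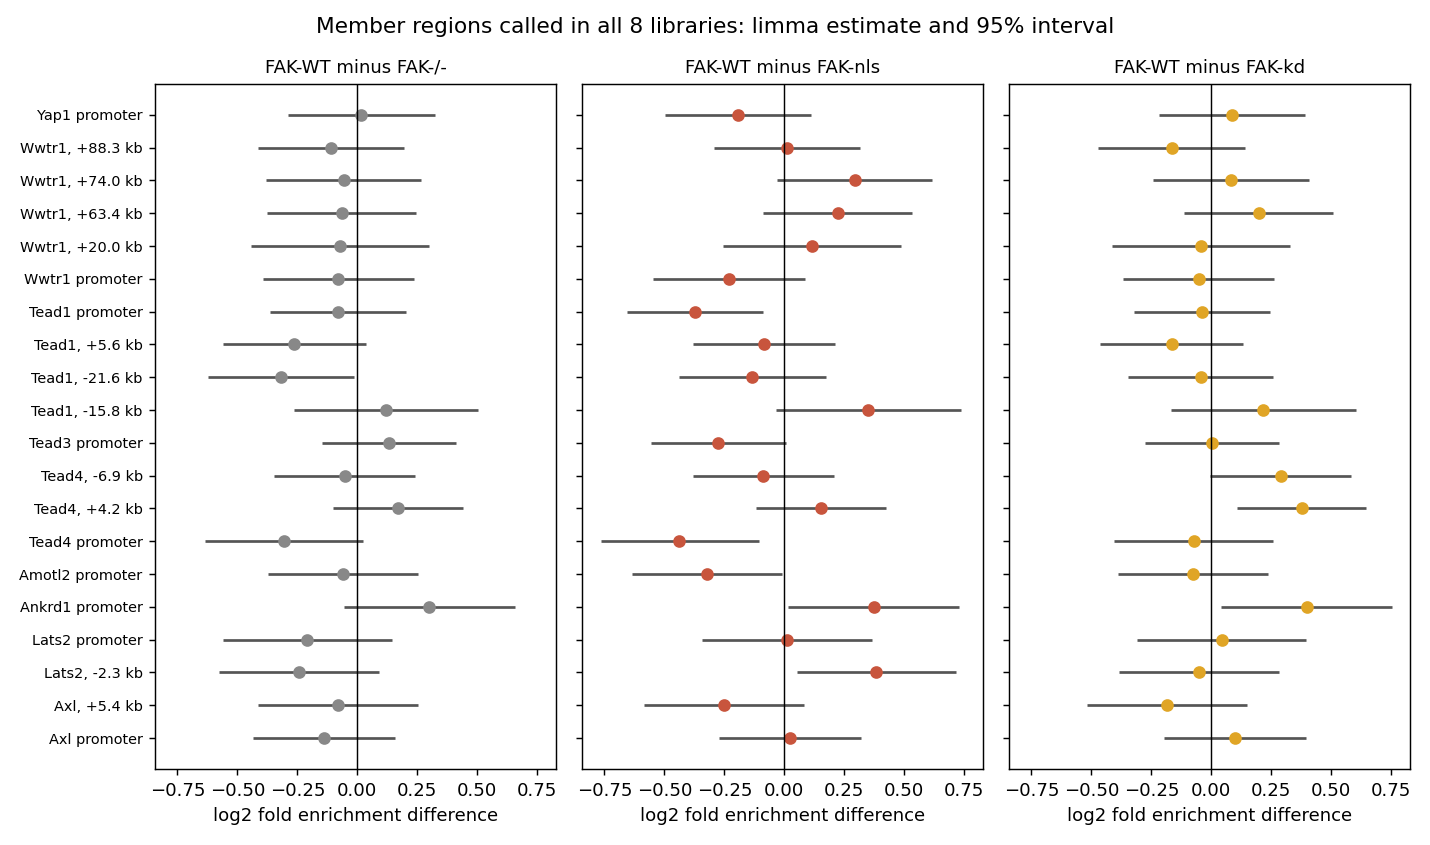
Difference in centred log2 fold enrichment, FAK-WT minus each other line, for the 20 member regions called in all 8 libraries (points, limma estimates; bars, 95% intervals). The Ankrd1 promoter is to the right of 0 in all 3 panels (0.30, 0.37 and 0.40), and the Tead4 promoter is farthest to the left, against FAK-nls (-0.44).

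The bases covered by the strongest peaks were summed in each gene window and compared between the 4 lines by an exact permutation test over every way of dividing the libraries into 4 pairs. The smallest p it can give is 0.00952, and a single line that stands apart can leave p as high as 0.143. At an unadjusted p of at most 0.05, 0 of the 9 members with a strong peak were called, against 10.1% of 15006 genes. Amotl2 had the largest share of its variance between lines, 93.6% (exact permutation p = 0.0952), with 2225 and 2027 bp in FAK-WT, 2174 and 2033 bp in FAK-/-, 1329 and 1255 bp in FAK-nls and 1866 and 2119 bp in FAK-kd. Axl had 1018 and 1043 bp in FAK-nls and between 1819 and 2966 bp in the other libraries (exact permutation p = 0.0857). Lats2 had 3103 and 3239 bp in FAK-/-, above the 558 to 2365 bp of the other libraries (exact permutation p = 0.133). Over all deposited peaks this order did not hold, since Lats2 had 3929 bp in FAK-WT replicate 1 and 3455 and 3239 bp in FAK-/-.

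In covered length the FAK-nls pair lay under all other libraries in 6 of the 9 members (Yap1, Wwtr1, Tead4, Amotl2, Ankrd1 and Axl), against 22.5% of all genes, and the FAK-/- pair lay over all others in Tead1 and Lats2, against 3.92%. For Tead1 the FAK-/- values, 5693 and 5741 bp, were close to the 5675 bp of FAK-WT replicate 2, and with 10 kb upstream in place of 20 kb they were 4148 and 4436 bp, below the 4855 bp of FAK-kd replicate 2. Over all deposited peaks the FAK-/- values of Tead1 were 7256 and 6612 bp, below the 10561 bp of FAK-WT replicate 1, as also for Lats2. The strongest peaks were themselves shorter in FAK-nls, at 13.2 and 13 Mb in all against 15.3 to 19 Mb in the other libraries, and the part of this in the member values was not tested. Tead2 was listed at 0 in every library.

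**Figure D5:**
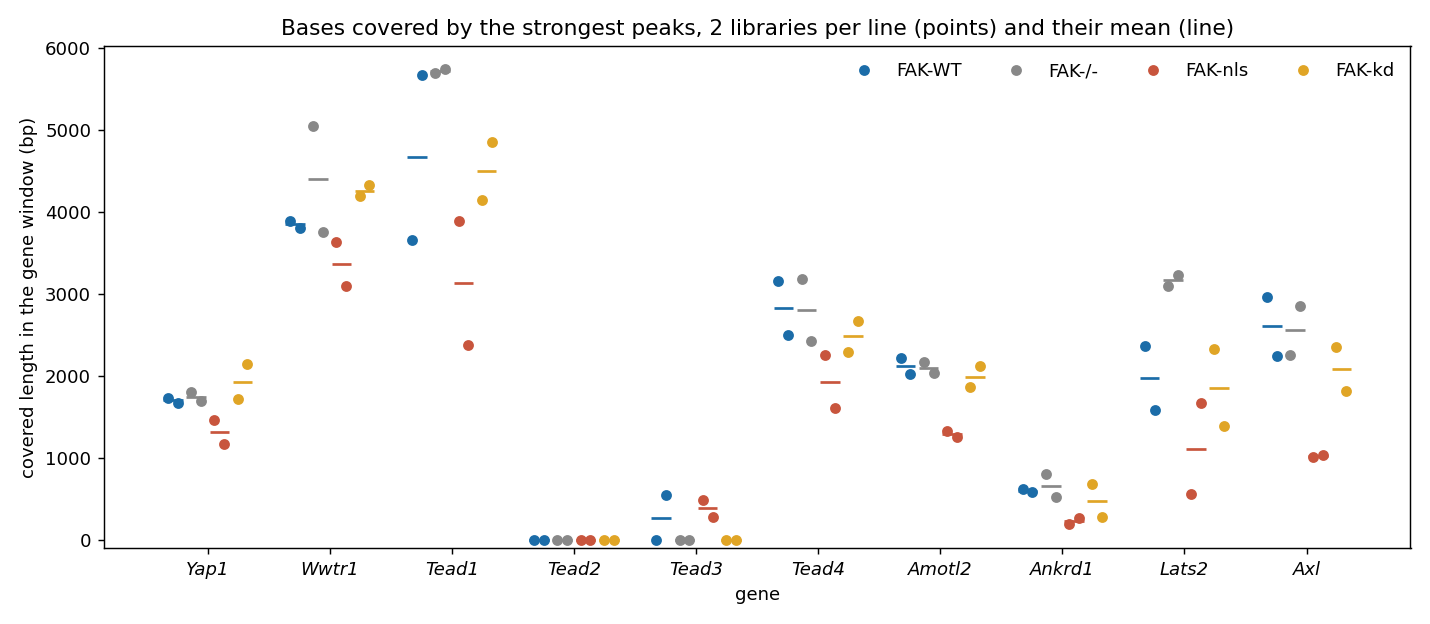
Bases of each gene window covered by the strongest peaks (y axis, bp) in the 2 libraries of each line (points) with the mean (line). Both FAK-nls points of Amotl2 (1329 and 1255 bp) and Axl (1018 and 1043 bp) lie below all others, and Tead2 is at 0 throughout.

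The rest of the pathway was covered by a list of 16 kinases and adaptors and 19 targets. Of these 35 genes, 25 had a promoter called in all 8 libraries (41.9% of all protein-coding genes did), among them Stk3 and Stk4 (the MST kinases), Lats1, Nf2, Amot and the target Ccn1, and 4 had none (Vgll1, Vgll2, Ccn2 and Igfbp3). Ccn2, a widely used YAP target, had no region in its window in any library. Their windows held 211 regions, 78 of them (37%) called in all 8, against 25.8% of all regions. The promoters of Wwc1 and Myof were called in 6 libraries, those of the other lines, and in neither FAK-nls library, as for Tead2. The Nuak2 promoter went the other way, with calls in both FAK-nls libraries, both FAK-kd libraries and FAK-/- replicate 1 and in neither FAK-WT library. WT-only regions numbered 2 of 194 for FAK-/- (1.03%, against 5.41% of all regions), 27 of 185 for FAK-nls (14.6%, against 18.4%) and 2 of 196 for FAK-kd (1.02%, against 4.76%). Reverse regions numbered 2 (1.03%, against 1.31%), 4 (2.16%, against 0.297%) and 6 (3.06%, against 0.912%). They lay in few windows: for FAK-nls 2 in Rbms3 and 1 each in Ptpn14 and Nuak2, and for FAK-kd 3 in Rbms3, 2 in Vgll4 and 1 in Nuak2. In fold enrichment 0 regions of either list passed in either direction (limma), with 1 and 2 at an unadjusted p under 0.05 for FAK-/-, 8 and 9 for FAK-nls and 1 and 3 for FAK-kd, of 36 and 42 regions. As shares these were 2.78% and 4.76% for FAK-/- (against 7.68% of all regions), 22.2% and 21.4% for FAK-nls (against 15.9%) and 2.78% and 7.14% for FAK-kd (against 6.22%). The median differences were -0.04, -0.05 and -0.07 for the kinases and adaptors and -0.05, -0.16 and -0.01 for the targets, against -0.01, -0.03 and -0.01 over all regions.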

How the data were processed

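ATAC-seq libraries of 4 SCC lines (2 replicates each, grouped from the sample labels) were analysed as peak lists. Reads had been aligned to mm10 with the bcbio pipeline, and peaks had been called per library with MACS2 in broad mode (version 2.1.1 and mm10 in the submitters' processing notes); the handling of duplicates is not given in the sources used here. The deposited pileup is coverage signal, not stated to be scaled between libraries. The authors' −log10 p-value tests a peak against local background, with the deposited −log10 q-value as its adjusted form, and the deposited fold enrichment is the ratio of pileup to that background. Read depth was not used, and the number of peaks per library, 24402 to 53728, limits precision. Replicates shared at most 0.0361% identical peaks.

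Peaks of the autosomes, X and Y were merged into regions (overlap of at least 1 bp, 15 to 25 peaks per library left out). Member windows used GENCODE vM21. The value of a region in a library was the fold enrichment of its best-ranked peak there. It was put on a log2 scale centred on the library median and fitted with limma 3.58.1 in R 4.3.3 (trend, all 4 lines, Benjamini-Hochberg over 17917 regions). On simulated data this fit recovered 76%, 74% and 75.5% of 200 regions changed by a log2 difference of 1 against FAK-/-, FAK-nls and FAK-kd, and 0% at 0.5. Covered length was tested by exact permutation in Python 3.11.15. Promoter sequences are from RefSeq. Members and lists were chosen with earlier results of these data known. Named regions were the promoters, the strongest other region in all 8 libraries, regions that were WT-only, reverse or in 1 line alone, and those past a threshold. The regions at an unadjusted p under 0.05 were named after their values were seen. Alternatives were other peak sets, minimum q, lengths, windows, scalings and left-out libraries. The sequence and single values of 1 member region, which stays in all counts, are not reported here.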

Additional observations from a re-analysis of the deposited data

How the results depend on the processing

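The counts of member regions by class moved with the peak set. With an equal number of strongest peaks, WT-only regions were 0, 1 and 1 against FAK-/-, FAK-nls and FAK-kd, and reverse regions against FAK-kd 2. With a minimum -log10 q of 3, WT-only regions were 1 against FAK-/- and 1 against FAK-kd (2679 and 2197 over all regions, against 3392 and 3008 in the report), and reverse regions against FAK-/- 1 (403 against 820). With a region called only when 50% covered, WT-only regions were 4 against FAK-/- and 17 against FAK-nls, and over all regions they rose too, to 4243 from 3392 and to 12282 from 10645. Keeping only regions nearest to the member's own start gave 1 reverse region against FAK-/-. Leaving out 1 library at a time, WT-only counts ranged from 2 to 9 (FAK-/-), 10 to 26 (FAK-nls) and 3 to 13 (FAK-kd), and reverse counts from 2 to 5, 0 to 1 and 1 to 5. The highest WT-only counts, 9, 26 and 13, came without FAK-WT replicate 2, where the counts over all regions were 14185, 26092 and 12595 against 3392, 10645 and 3008, and without FAK-kd replicate 2 the count against FAK-kd was 6 (8203 over all regions). Of the reverse counts, 4 (FAK-/-) and 5 (FAK-kd) came without FAK-WT replicate 1 (3246 and 2570 over all regions), 5 without FAK-/- replicate 2 (4831), 4 (FAK-kd) without FAK-kd replicate 1 (5612), and 1 (FAK-nls) without either FAK-nls library (861 and 1022), against 820, 172 and 576 over all regions with all libraries. The cause was not tested, beyond that fewer libraries make each class easier to meet. Peaks set to 500 bp and shorter windows left every count within 1.5 times.

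No member region passed in fold enrichment under any scaling, filter or left-out library (0 to 0 in each comparison), except that normal scores of ranks, which are not centred and shift the median of all regions by 0.50, called 3 against FAK-nls, with 1415 higher and 18 lower over all regions. The Lats2 region 2.34 kb upstream was among them, while the Tead1 and Amotl2 promoters turned to 0.02 and 0.08 and the Tead4 promoter was at -0.01 on that scale. Covered length over all deposited peaks, not an equal number, gave 4 called members (Yap1, Tead3, Ankrd1 and Lats2) of 10, against 12.1% of genes.

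With the replicate number as a block, 0 member regions passed, and over all regions 1, 0 and 3 did. Deviations of same-numbered libraries correlated at 0.0828, -0.0306 and -0.228 between FAK-WT and FAK-/-, FAK-nls and FAK-kd, so these values did not show a pairing by number. They cannot settle whether same-numbered libraries were prepared together. Crossing the numbers for FAK-kd, an alternative chosen after seeing the data, gave 159 calls over all regions against 12 for the uncrossed replicate block, both fitted on these 2 lines alone, and 0 members. Reads per region were not at hand, the part of sequencing depth in the calls was not tested, and 2 libraries per line limit every comparison.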
